A study of Rattus norvegicus with 8 samples.

Results

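The digestive hydrolases of the small-intestinal brush border were followed here in rats given different drinking water. The set holds 9 genes: the disaccharidases Si, Lct and Treh, the peptidases Anpep, Enpep, Dpp4, Mme and Ace, and the phosphatase Alpi. Its members were chosen by name, as every probe set that the array's annotation gives to those genes. Of the 9 genes, 8 were represented, by 11 of the 31099 probe sets on the array. Lct, which encodes lactase, was not analysed here. All 8 genes passed the filter on low signal that left 9258 of 14217 named genes for testing.

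The samples were loosened epithelium of the proximal small intestine, taken from Wistar rats aged 4 months and hybridised to Affymetrix rat expression arrays. The labels name no engineered allele in any group, and the methods describe the animals as female. Rats received tap water (TW) for 3 days, deep-sea water adjusted to a hardness of 1200 (DSW1200) for 3 days or selenium water (SeW) for 3 days, or underwent water restriction (WR) for 12 h, with 2 arrays in each of the 4 groups. Nothing states whether the arrays of a group came from separate animals or pools, so the p-values measure the spread between these samples, which may be technical.

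Brush border hydrolases are membrane enzymes on the microvilli of absorptive enterocytes, the cells that line the villus. They make the last cuts in digestion: disaccharidases split sugars into monosaccharides, and peptidases trim peptides to short fragments and amino acids that transporters in the same membrane take up. Their transcripts increase as cells leave the crypt and climb the villus, and sucrase-isomaltase is a classical marker of enterocyte differentiation. In bulk epithelium fewer cells of a type and less RNA per cell cannot be told apart.

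Markers of the labelled tissue were present. All 10 enterocyte markers on the list were tested, and their summed signal lay between 40904 and 48956 on the 8 arrays. For other cell types, summed signals ran from 2358 to 3520 over 11 myeloid markers, from 36.4 to 74.9 over 4 endothelial markers and from 20.7 to 334 over 7 pancreatic acinar markers, of which 3 were under the filter. Most of the myeloid sum came from a single gene, with group means of 2042 to 2304. Sums of different lists rest on different probe sets and do not measure the share of each cell type. Signals below are the authors' deposited intensities, quantile normalized across arrays here and kept on a linear scale, and they are compared only within a probe set.

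Among the 8 genes, 3 were higher in SeW than in TW and 0 were lower, where 0.799% of all tested genes were higher and 1.11% lower. They were Si, Enpep and Mme, with fold differences of 2.26, 1.79 and 1.70. Against WR the count was 2, Si and Enpep, where 0.562% of tested genes were higher. All of these calls were lost with each array centred on its median. No member passed the test in any other pair of groups. The regulatory stretches just upstream of these 3 genes are shown first, because they are the members that differed. Each run is the 250 bases before the annotated transcription start in the RefSeq annotation of the rat build GRCr8, written 5′ to 3′ on the gene's own strand. Capitals mark any match, on either strand, to a motif of a transcription factor known to act in enterocytes. The Cdx motif was searched as TTTAT, the Hnf1 motif as GTTAAT and the Gata motif as AGATAA. Si is at chr2:159884903-159885152 on the minus strand, Enpep at chr2:220526219-220526468 on the minus strand and Mme at chr2:149872247-149872496 on the plus strand.
Si: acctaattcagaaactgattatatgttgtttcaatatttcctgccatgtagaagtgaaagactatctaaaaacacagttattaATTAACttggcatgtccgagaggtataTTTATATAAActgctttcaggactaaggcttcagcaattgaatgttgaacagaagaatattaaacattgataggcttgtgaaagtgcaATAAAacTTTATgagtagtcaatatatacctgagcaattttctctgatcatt
Enpep: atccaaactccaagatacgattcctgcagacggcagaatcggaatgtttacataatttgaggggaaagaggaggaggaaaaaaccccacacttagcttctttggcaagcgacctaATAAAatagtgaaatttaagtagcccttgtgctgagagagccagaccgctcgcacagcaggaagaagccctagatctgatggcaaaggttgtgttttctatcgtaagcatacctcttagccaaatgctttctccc
Mme: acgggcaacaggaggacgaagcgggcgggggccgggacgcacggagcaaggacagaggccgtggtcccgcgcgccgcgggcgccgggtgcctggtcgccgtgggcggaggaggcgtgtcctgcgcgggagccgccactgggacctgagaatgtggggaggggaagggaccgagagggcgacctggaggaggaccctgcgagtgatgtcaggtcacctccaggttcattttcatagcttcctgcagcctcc
The Si stretch held 4 Cdx motifs, which start 140, 135, 52 and 45 bases before the transcription start and do not overlap each other, and 1 Hnf1 motif at 167 bases. Enpep held 1 Cdx motif at 135 bases, and Mme, with a GC content of 70.4% against 31.2% in Si and 45.2% in Enpep, held none. Among 33469 rat promoters read over the same length, 39.3% held the Cdx motif, 6.45% the Hnf1 motif and 10.3% the Gata motif. Of the other members, Lct held 2 Cdx and 2 Gata motifs, with a Cdx and a Gata match overlapping, Anpep 1 Hnf1 motif and Ace 1 Cdx motif, while the 250 bases of Dpp4 and Alpi held none of the 3. For Treh no sequence was read.

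Si encodes sucrase-isomaltase, which splits sucrose and the branch points of starch fragments. Its normalized signal was 3160 and 2046 on the TW arrays, 3113 and 2175 on the WR arrays, 2829 and 3275 on the DSW1200 arrays and 6297 and 5225 on the SeW arrays. Both SeW arrays lay above the other 6, and TW, WR and DSW1200 overlapped. The log2 difference of SeW from TW was 1.17 (SE 0.23, 95% interval 0.66 to 1.69), with an adjusted p of 0.0379 in limma after Benjamini-Hochberg adjustment over all tested genes. Against WR it was 1.14 (interval 0.63 to 1.65, limma adjusted p = 0.0499), and against DSW1200 it was 0.91 (interval 0.40 to 1.43, limma adjusted p = 0.0655), which did not pass. Si was the only member to differ by 2-fold or more, in SeW against TW and in SeW against WR. Such a fold was reached upward by 3.89% and 2.34% of tested genes.

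Treh encodes trehalase, which splits the sugar of mushrooms and insects. Its signal was low, at 73.2 and 82.8 on the TW arrays, 62.6 and 42.1 on the WR arrays, 37.5 and 61.2 on the DSW1200 arrays and 81.7 and 93.5 on the SeW arrays. The WR and DSW1200 arrays all lay below the TW and SeW arrays, which overlapped each other. None of its 6 pairwise differences passed. The furthest from 0 was SeW against DSW1200 at 0.87 (interval 0.24 to 1.49, limma adjusted p = 0.128), and DSW1200 against TW was −0.70 (interval −1.33 to −0.074, limma adjusted p = 0.617).

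**Figure D1:**
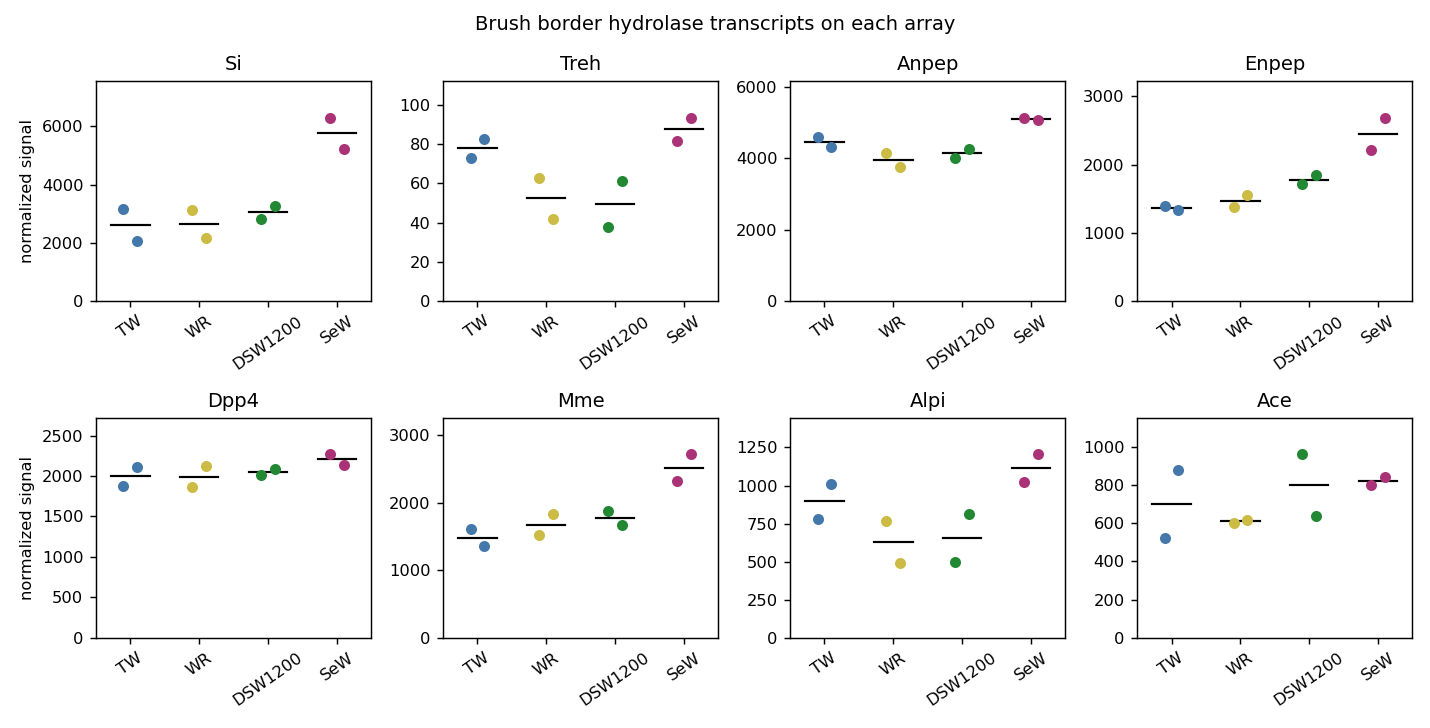
Normalized signal (linear scale, 1 panel per gene, each axis from 0) of the 8 measured brush border hydrolases on every array of TW, WR, DSW1200 and SeW; points are arrays and bars are group means (n = 2). In Si, Enpep and Mme both SeW points stand clear of the other 6, whereas in Treh the SeW points overlap TW and in Ace they lie within the range of the other arrays.

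Enpep and Mme, which act on peptide hormones as well as on food peptides, followed Si. Enpep encodes glutamyl aminopeptidase, which removes acidic residues from the amino end of peptides. Its main probe set read 1391 and 1330 on the TW arrays, 1375 and 1555 on the WR arrays, 1710 and 1840 on the DSW1200 arrays and 2206 and 2686 on the SeW arrays. No array of DSW1200 overlapped TW or WR, and none of SeW overlapped any other group. SeW exceeded TW by 0.84 on the log2 scale (SE 0.14, interval 0.52 to 1.16, limma adjusted p = 0.0286) and WR by 0.73 (interval 0.41 to 1.06, limma adjusted p = 0.0494). DSW1200 differed from TW by 0.38 (interval 0.062 to 0.71, limma adjusted p = 0.617), and SeW from DSW1200 by 0.46 (interval 0.13 to 0.78, limma adjusted p = 0.122). A further Enpep probe set read between 0.25 and 6.56 on every array, under the filter, and gives no change.

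Mme encodes neprilysin, an endopeptidase of the same membrane. Its signal was 1609 and 1352 on the TW arrays, 1520 and 1824 on the WR arrays, 1877 and 1664 on the DSW1200 arrays and 2322 and 2713 on the SeW arrays. Again the SeW arrays were the highest, and WR overlapped both TW and DSW1200. The log2 difference of SeW from TW was 0.77 (SE 0.16, interval 0.41 to 1.12, limma adjusted p = 0.0437). Against WR it was 0.59 (interval 0.24 to 0.94) and against DSW1200 it was 0.51 (interval 0.15 to 0.86), with limma adjusted p of 0.116 and 0.120.

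Anpep encodes aminopeptidase N, an enzyme of broad specificity that is abundant in the microvillus membrane. Its signal was 4592 and 4313 on the TW arrays, 4163 and 3758 on the WR arrays, 4005 and 4271 on the DSW1200 arrays and 5142 and 5070 on the SeW arrays. Although both SeW arrays were the highest, the difference from TW was 0.20 (interval −0.066 to 0.46, limma adjusted p = 0.391), and with each array centred on its median it was −0.34. Against WR it was 0.37 (interval 0.10 to 0.63, limma adjusted p = 0.163).

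Dpp4, which clips dipeptides off peptides with proline or alanine in the penultimate position, had the largest p of the 8 in the F test over all groups (limma adjusted p = 0.791). Its brighter probe set read 1883 and 2109 on the TW arrays, 1864 and 2120 on the WR arrays, 2011 and 2092 on the DSW1200 arrays and 2267 and 2142 on the SeW arrays. SeW differed from TW by 0.15 (interval −0.15 to 0.44, limma adjusted p = 0.590), so that a 2-fold difference lies outside the interval. The dimmer probe set read 109 and 92.3 on the TW arrays, 95.9 and 146 on the WR arrays, 135 and 83.7 on the DSW1200 arrays and 148 and 198 on the SeW arrays. In a fit that tested every probe set separately, its SeW against TW difference was 0.77 (SE 0.28, limma adjusted p = 0.179), larger than the 0.15 of the brighter set.

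Ace encodes angiotensin-converting enzyme, which removes dipeptides from the carboxyl end of peptides in the brush border and on endothelium. Its brighter probe set read 524 and 878 on the TW arrays, 603 and 617 on the WR arrays, 960 and 637 on the DSW1200 arrays and 799 and 839 on the SeW arrays, and the groups overlapped except SeW over WR and DSW1200 over WR. The other Ace probe set read 471 and 538 on the TW arrays, 514 and 360 on the WR arrays, 484 and 452 on the DSW1200 arrays and 797 and 924 on the SeW arrays. There SeW stood above all other arrays. With every probe set tested, the first gave 0.27 against TW and 0.42 against WR (limma adjusted p = 0.604 and 0.453), while the other gave 0.77 against TW (SE 0.19, limma adjusted p = 0.0721), 1.00 against WR (limma adjusted p = 0.0455) and 0.88 against DSW1200 (limma adjusted p = 0.0419). The 2 probe sets of Ace disagreed on whether SeW differed from WR and DSW1200. In that fit, 1.08% of 11959 probe sets were called in SeW against WR and 2.97% in SeW against DSW1200.

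**Figure D2:**
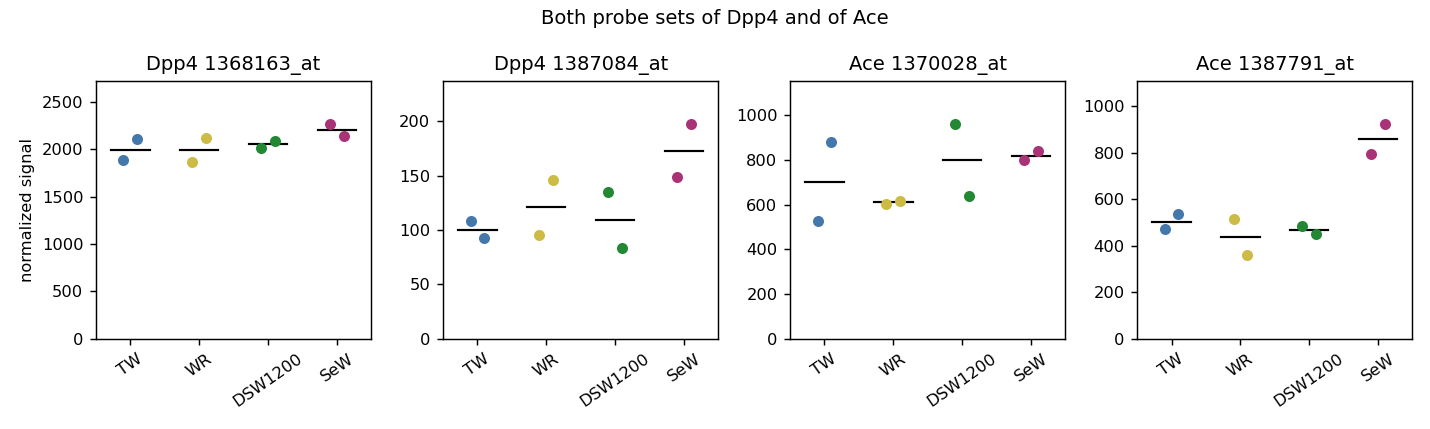
Normalized signal (linear scale, axes from 0) on every array for the brighter and the dimmer probe set of Dpp4 and of Ace; points are arrays and bars are group means (n = 2). The SeW points of Ace stand apart on the probe set with the lower mean (797 and 924) and not on the other (799 and 839).

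Alpi encodes intestinal alkaline phosphatase, the enzyme long used to stain the brush border. Its signal was 782 and 1012 on the TW arrays, 764 and 490 on the WR arrays, 496 and 815 on the DSW1200 arrays and 1023 and 1204 on the SeW arrays. Both SeW arrays lay above the others, with the second TW array close below. SeW differed from TW by 0.32 (interval −0.29 to 0.93, limma adjusted p = 0.559), from DSW1200 by 0.80 (interval 0.20 to 1.41, limma adjusted p = 0.144) and from WR by 0.86 (interval 0.25 to 1.47, limma adjusted p = 0.160).

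Over the whole set, the question of whether selenium water changed these transcripts relative to tap water gave the 3 calls above, all higher, of 8. The median log2 difference of the 8 genes was 0.30, against −0.042 for all tested genes. Every member mean was higher in SeW than in TW, from 0.15 to 1.17, but 4 of these directions turned under another setting: Anpep with median centring (−0.34), Ace without TW replicate 1 (−0.10), and Treh and Alpi with the ratio of 3′ to 5′ beta-actin signal in the model (−1.14 and −1.22). None of these 4 passed the test either way. The beta-actin ratio was lower on both SeW arrays than on all other arrays, so ratio and group cannot be told apart. Arrays of the groups did not overlap for 6 of 8 members, all with SeW higher, where 22.1% of tested genes did so. The calls rested on few arrays. All 3 held without TW replicate 1 and none held without TW replicate 2. None held when either WR array or either SeW array was left out, and without either DSW1200 array Mme alone was lost (limma adjusted p = 0.0509 and 0.0512). None was called with median centring. On the deposited values all 8 were called higher, beside 4395 of 9257 tested genes called in either direction. The median tested gene was itself 0.92 higher in SeW there. Relative to the median of all tested genes, the members' median stood 0.34 higher as reported, 0.31 as deposited and 0.31 with median centring. It stood 0.49 higher with probe sets averaged and 0.26 with the beta-actin ratio in the model. With single arrays left out it ran from 0.24 (without SeW replicate 2) to 0.62 (without TW replicate 2).

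In SeW against WR, 2 of 8 members were called higher and 0 lower, beside 0.670% of tested genes lower. The median difference was 0.66, against −0.042 for all tested genes, and all 8 members had both SeW arrays above both WR arrays, as 24.2% of tested genes did. These 2 calls, both close to the threshold, held when TW replicate 1 or TW replicate 2 was left out. They were lost when any of the other 6 arrays was, with limma adjusted p up to 0.307 for Si and 0.401 for Enpep.

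In SeW against DSW1200, 0 of 8 members were called by limma, where 2.72% of tested genes were called in either direction. At an unadjusted p under 0.05 there were 6 (Si, Treh, Anpep, Enpep, Mme and Alpi), all with SeW higher (Anpep was lower, at −0.16, with median centring, and Treh and Alpi, at −1.08 and −1.48, with the beta-actin ratio in the model), beside 20.0% of tested genes, and the median difference was 0.48. Si was called in this comparison without TW replicate 1 or TW replicate 2 (limma adjusted p = 0.0304 in each).

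Water restriction and deep-sea water gave no call. In WR against TW, 0 of 8 members passed in limma and 0 had an unadjusted p under 0.05, where 0.0108% and 9.70% of tested genes did, with a median of −0.078 and a range from −0.60 (Treh) to 0.17 (Mme). In DSW1200 against TW, 0 of 8 passed in limma, as did 0% of tested genes, and 2 (Treh and Enpep) had an unadjusted p under 0.05, beside 7.92% of tested genes. The median was 0.12 and the range ran from −0.70 (Treh) to 0.38 (Enpep). In DSW1200 against WR, 0 of 8 passed in limma, beside 0% of tested genes, and 0 had an unadjusted p under 0.05, beside 5.84%, with a range from −0.099 (Treh) to 0.36 (Ace). The intervals were wide. For Si they ran from −0.48 to 0.54 in WR against TW and from −0.25 to 0.77 in DSW1200 against TW. The 3 comparisons with TW share the same TW arrays.

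**Figure D3:**
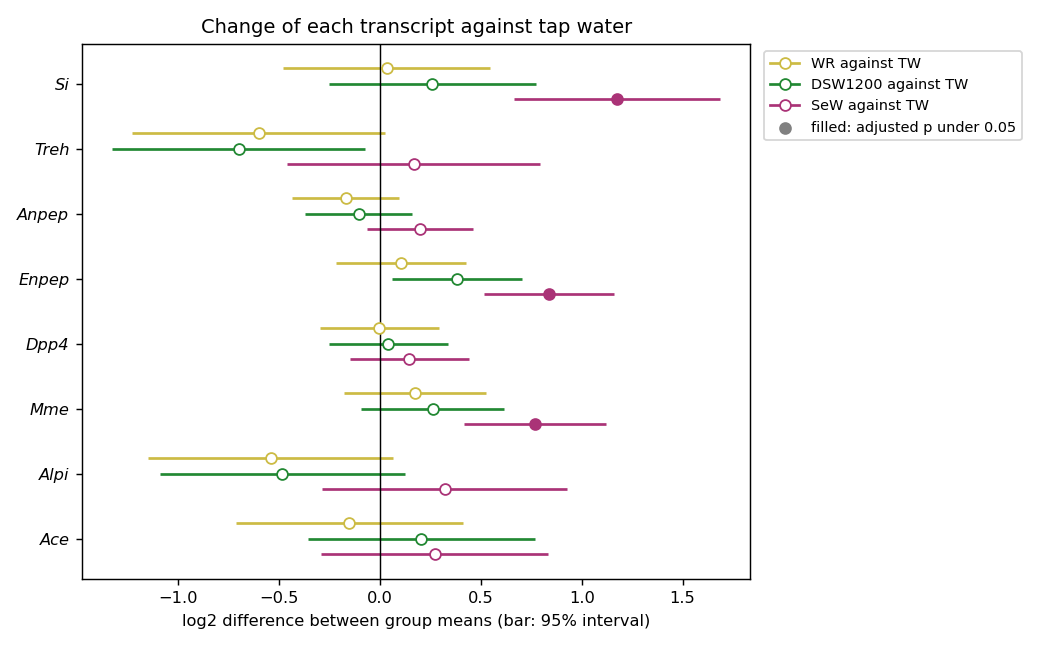
Log2 difference of each gene's group mean from the TW mean (x axis) for WR, DSW1200 and SeW, with 95% intervals from limma as bars (2 arrays per group, the spread estimated over all 8 arrays). Filled points passed at an adjusted p under 0.05 and are those of Si, Enpep and Mme in SeW; every SeW point lies right of 0, although Anpep lies left of it with median centring, Ace without TW replicate 1, and Treh and Alpi with the beta-actin ratio in the model.

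The moderated F test over the 4 groups called 0 of 8 members, beside 0.616% of tested genes. The smallest adjusted p in limma were 0.0659 for Enpep, 0.0790 for Si and 0.112 for Mme. SeW was the highest of the 4 group means for all 8 members, except for Anpep with median centring, for Treh and Alpi with the beta-actin ratio in the model, and for Ace when single arrays were left out or that ratio was added. The next group was DSW1200 for Si, Enpep, Dpp4, Mme and Ace and TW for Treh, Anpep and Alpi. No neighbours in these orders differed at an adjusted p of 0.05, the nearest being SeW and DSW1200 in Si (limma adjusted p = 0.0655). Both SeW arrays exceeded the other 6 for 6 of 8 members, all but Treh and Ace, where 10.6% of tested genes did. On the deposited values, chosen after seeing the data, this held for 8 members and 61.9% of genes, and with median centring, also chosen after seeing the data, for Si, Enpep and Mme and 14.1% of genes.

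Members did not all vary alike from array to array. Over the 8 arrays, Pearson r between members ran from 0.025 to 0.98 with a median of 0.48 across the 28 pairs, and these values share the arrays and their groups. The highest belonged to Treh and Alpi (0.98), followed by Enpep and Mme (0.94). Outside the set, the genes closest to the members' mean profile were Ifnlr1, Rnf181, Nmt1, Unc5cl and Gstm2, with r from 0.97 to 0.98 over 8 arrays. Clk4 was the closest to Si (r = 0.98), Sdhd to both Enpep (r = 0.97) and Mme (r = 0.96), Homer1 to Dpp4 (r = 0.99), Rnasek to Treh, Nit1 to Anpep and Glmp to Alpi (r = 0.98 each), and Clasrp to Ace (r = 0.96). All these genes were picked for the highest r among the tested genes outside the set. High values therefore follow in part from the picking, and no test was made of them.

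Other hydrolases of the same membrane were read from a separate list. Of 15 genes, 11 were on the array and 10 were tested. In SeW against TW, 1 was higher, 0 were lower and the median difference was 0.58. On the deposited values 9 were called higher, beside 4395 of 9257 tested genes called in either direction. The gene called as reported was Xpnpep2, an aminopeptidase that cleaves before proline, at 231 ± 5.90 in TW and 452 ± 33.2 in SeW (mean ± SD, n = 2; log2 difference 0.97, SE 0.19, limma adjusted p = 0.0379), which did not pass with median centring (limma adjusted p = 0.123). In SeW against DSW1200, 2 were higher, Xpnpep2 (0.95, limma adjusted p = 0.0361) and the nucleotide phosphodiesterase Enpp3 (0.95, limma adjusted p = 0.0232), and in SeW against WR none was called. Enpp3 averaged 1266 ± 79.7 in TW and 2104 ± 36.9 in SeW, a difference of 0.73 (limma adjusted p = 0.0535). The meprin subunit Mep1b and the ceramidase Asah2 differed by 0.53 and 0.83 (limma adjusted p = 0.0799 and 0.0538).

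Transporters that take up the products of these enzymes gave no call in any of the SeW comparisons. On the deposited values all 7 tested were called higher than in TW, beside 4395 of 9257 tested genes called in either direction. Of 9 listed, 7 were tested, and the SeW mean exceeded that of TW for all 7 under each of the 3 scalings, with a median difference of 0.55. The peptide transporter Slc15a1 differed by 0.97 (limma adjusted p = 0.0722), the hexose transporter Slc2a2 by 0.58 (limma adjusted p = 0.121) and the sodium-glucose cotransporter Slc5a1 by 0.43 (limma adjusted p = 0.394). Genes of microvillus structure, by contrast, had a median of 0.038 over 14 tested genes. In SeW against TW, 1 was lower and 0 were higher: Espn, an actin-bundling protein, at 399 ± 3.96 in TW and 148 ± 22.5 in SeW (log2 difference −1.44, SE 0.21, limma adjusted p = 0.0163). On the deposited values, 11 of the 14 were called higher and 0 lower, beside the same 4395 of 9257 tested genes. The Espn call was lost as deposited and with median centring (−0.48 and −1.33, limma adjusted p = 0.180 and 0.0626). The membrane linker Ezr differed by 0.90 (limma adjusted p = 0.0838).

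Among 12 tested transcription factors of the enterocyte, 1 was lower in SeW than in TW and 0 were higher, with a median of 0.064. Pdx1, a homeodomain factor of the duodenum and pancreas, fell by 1.47 on the log2 scale, from 376 ± 27.5 in TW to 138 ± 30.7 in SeW (limma adjusted p = 0.0123), a call lost as deposited and with median centring (−0.52 and −1.37, limma adjusted p = 0.111 and 0.0516). It was also lower in SeW than in WR (−1.15, limma adjusted p = 0.0383) and than in DSW1200 (−1.70, limma adjusted p = 0.00538). On the deposited values 9 of the 12 were called higher than in TW and 0 lower, beside 4395 of 9257 tested genes called in either direction. As reported, the other 11, which include Cdx and Gata factors, did not pass in SeW against TW. The dimmest of them, a Cdx factor, had group means of 9.44 to 12.6 and an SE of 0.61. The lack of a call does not show that these factors were unchanged.

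**Figure D4:**
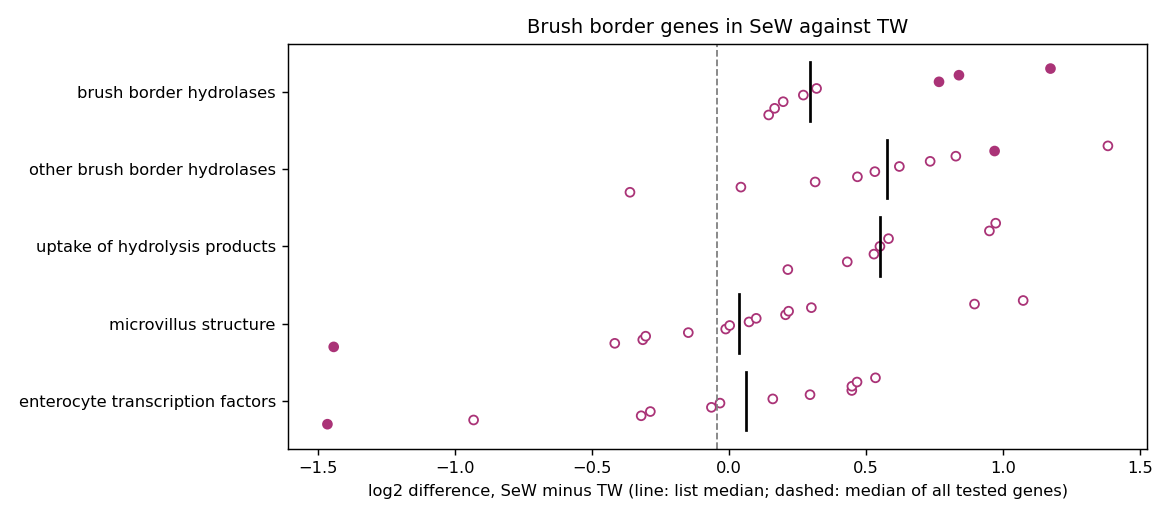
Log2 difference of SeW from TW (x axis) for each tested gene of 5 lists; filled points passed at an adjusted p under 0.05 in limma, black lines are list medians and the dashed line is the median of all tested genes. The medians of the brush border hydrolases (0.30), the other hydrolases (0.58) and the transporters (0.55) lie right of the dashed line at −0.042, and those of microvillus structure (0.038) and transcription factors (0.064) lie near it.

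Several measures of cell content and RNA differed between SeW and TW, and some of them also between WR and TW. The summed signal of the 10 enterocyte markers was 43032 and 45009 in TW and 47318 and 48956 in SeW, with 0 called and 8 of 10 means higher in SeW (1 of 10 with median centring), whereas the sum of the 8 members was 13123 and 14013 in TW and 19973 and 20139 in SeW. Villus tip markers summed to about 12683 on each TW array and to 15225 and 15750 in SeW (6 of 8 higher in mean, 5 with median centring, 0 called). All 9 tested myeloid markers had lower means in SeW than in TW (sums of 2905 to 3141 in TW and 2649 to 2712 in SeW, 0 called, and 1 of 9 lower as deposited), as had all 4 endothelial markers (43.8 to 74.9 and 36.4 to 45.1, 0 called, and 3 lower with median centring) and all 4 tested pancreatic acinar markers (sums over 7 genes of 21.5 to 117 and 20.7 to 24.4, 0 called). T lymphocyte markers were lower in mean in SeW than in TW for 4 of 5 tested (median −0.34, 0 called). Goblet and enteroendocrine markers were lower for 5 of 7 each (medians −0.16 and −0.33, 0 called). As deposited, 2 of 5, 0 of 7 and 0 of 7 were lower. Gzmb of the T lymphocyte list was called lower in SeW than in WR (−1.65, limma adjusted p = 0.0194) and than in DSW1200 (−1.18, limma adjusted p = 0.0325). Apoa4, of the enterocyte and villus tip lists, was called higher in SeW than in WR (0.89, limma adjusted p = 0.0494). C1qa and C1qc of the myeloid list were called lower in SeW than in WR (−1.24 and −1.23, limma adjusted p = 0.0494 and 0.0425). Other lists were higher in mean in SeW. Smooth muscle markers summed to 51.7 to 57.0 in TW and 80.3 to 80.7 in SeW (4 of 4 tested higher, median 0.63, 0 called), and villus base markers to 7406 to 7783 and 9053 to 10238 (5 of 5 higher, 4 with median centring, median 0.63, 0 called). Fibroblast markers were higher in mean for 5 of 6 (median 0.29, 0 called), with overlapping sums of 146 to 299 and 231 to 268. The Paneth cell defensin Defa24, the only tested gene of its list, was higher in SeW than in TW (41.3 ± 14.5 in TW, 181 ± 62.7 in SeW, limma adjusted p = 0.0166). Its mean was higher still in WR (434 ± 95.7, limma adjusted p = 0.00934 against TW). Proliferation markers summed to 426 to 578 in TW and 530 to 691 in SeW (5 of 5 tested higher in mean, median 0.89, 0 called). Their median was 1.07 with median centring. Pcna made up most of that sum and differed by 0.14, while the dimmer Mki67, Top2a and Mcm2 differed by 0.89, 1.10 and 0.82. In WR against TW, proliferation and villus base markers were also higher in mean for 5 of 5 each (medians 0.90 and 0.57, 0 called). Fibroblast markers were higher there for 6 of 6 and smooth muscle markers for 3 of 4 (medians 0.79 and 0.28, 0 called). Myeloid, T lymphocyte, endothelial and pancreatic acinar medians were 0.38, 0.35, 0.19 and 1.96 there. Goblet and enteroendocrine medians were −0.060 and −0.26. The beta-actin signal at the 3′ end was 20.6 to 24.1 times that at the 5′ end in TW, 21.1 to 24.8 in WR, 27.1 to 32.8 in DSW1200 and 10.9 to 13.6 in SeW, the lowest of the 4 groups. For Gapdh the same ratio was 1.80 and 1.82 in SeW and 2.35 to 3.86 on the other arrays. With the beta-actin ratio in the model, the SeW against TW difference was 1.33 for Si, 0.64 for Enpep and 1.05 for Mme, but −1.14 for Treh and −1.22 for Alpi, and no member or other gene was called. Against WR, Treh and Alpi were at −0.60 and −0.75 in that model. The SeW arrays, at 10.9 to 13.6, all lay below the other arrays, at 20.6 to 32.8, so in that fit ratio and group cannot be told apart. The part of these measures in the members' differences was not tested.

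**Figure D5:**
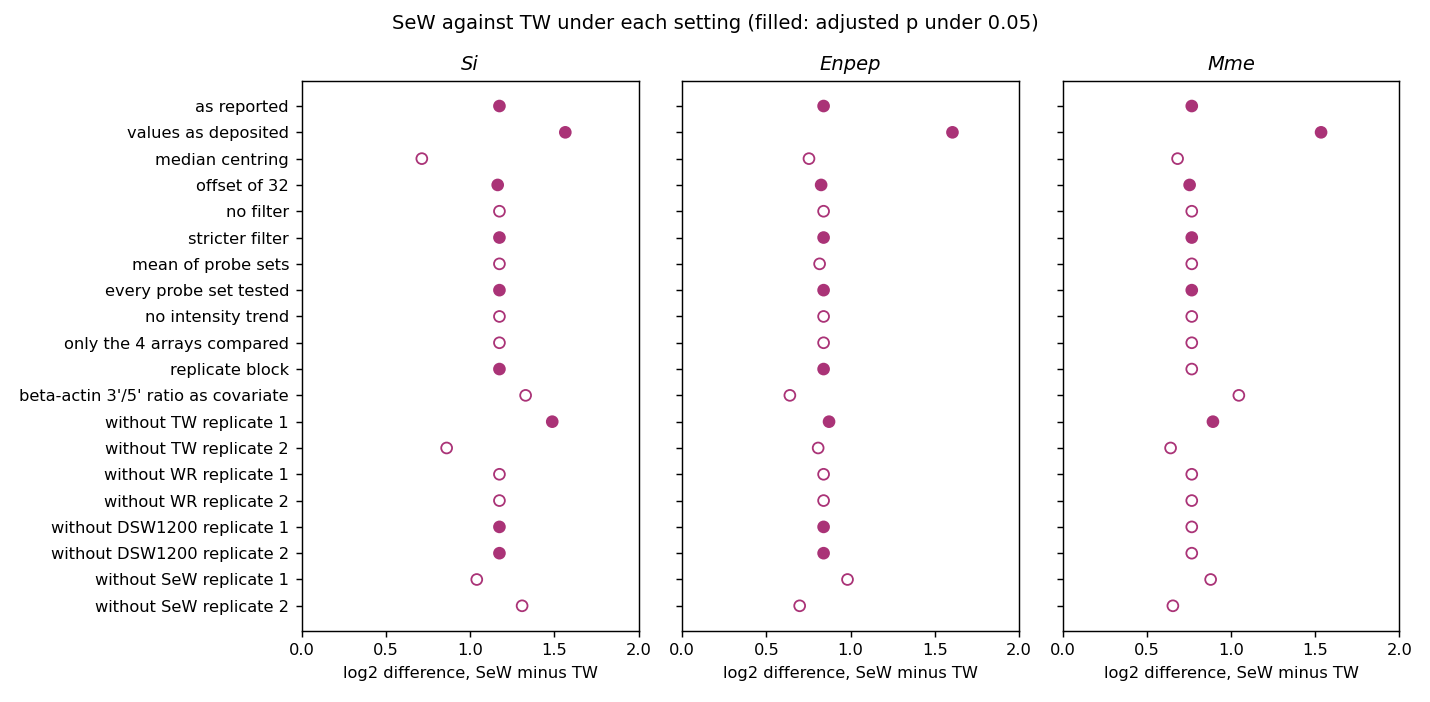
Log2 difference of SeW from TW (x axis, from 0) for Si, Enpep and Mme as reported and under each of 19 other settings (y axis); filled points have an adjusted p under 0.05. All points lie right of 0, between 0.64 and 1.60, and 8 of 19 are filled for Si, 8 for Enpep and 5 for Mme.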

How the data were processed

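Each probe set's deposited value is a MAS5 intensity, linear in scale, according to the submitters' processing notes. The version and scaling target are not given in the sources used here. The paper's methods state quantile normalization, yet array medians ran from 4.3 to 11.1, so arrays were quantile normalized here, values under 1 set to 1 and log2 taken. Probe sets were named through the platform annotation and RefSeq: 20826 have 1 symbol, 436 several and 9837 none. Each gene was represented by its brightest probe set, and genes with a mean signal over 6.69 were tested.

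The tests used limma 3.58.1 in R 4.3.3, with 1 model over all 8 arrays (4 residual degrees of freedom, intensity trend), 6 contrasts and an F test, with Benjamini-Hochberg adjustment over 9258 genes and a threshold of 0.05. The median standard error of a log2 difference was 0.264, and the number of arrays limits the precision. An exact permutation test of 2 arrays against 2 cannot go below p = 0.333 and was not used. The method was tested on simulated data. Named outside the set are up to 4 genes per list with the smallest F-test p, and the genes most like the members. Members and lists were chosen with earlier results of these data known. Alternatives covered scaling, floor, filter, probe set choice, trend, arrays fitted, replicate block, actin ratio and each array left out. Promoters come from RefSeq on GRCr8, with 8 of 9 members matched.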

Additional observations from a re-analysis of the deposited data

How the results depend on the processing

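No result changed direction past the threshold. In SeW against TW, 177 tested genes were called in either direction as reported, 4395 of 9257 as deposited and 630 by a 2-fold threshold. The count of members higher in SeW than in TW, 3 as reported, was 8 on the values as deposited and 1 by a 2-fold threshold. It was 0 with median centring, without the filter, with probe sets averaged, without the intensity trend, with only the 4 arrays compared or with the beta-actin covariate. For SeW against WR, 2 as reported, it was 7 as deposited, 4 with only the 4 arrays compared, 1 by 2-fold and 0 with median centring, without the filter, with probe sets averaged, without the trend, with the replicate block or with the covariate. Over all tested genes the calls there were 114 as reported, 973 as deposited, 446 with only the 4 arrays compared and 469 by 2-fold. For SeW against DSW1200, 0 as reported, it was 8 as deposited and 1 with only the 4 arrays compared (Si, limma adjusted p = 0.0278). Over all tested genes these settings gave 252, 3740 and 253 calls. The F test, 0 as reported, called 7 as deposited, where it called 57 and 2766 of all tested genes. As deposited, the median of all tested genes was 0.92 in SeW against TW and that of the members 1.23, a difference of 0.31, against 0.34 as reported. The other medians of the members as deposited were 0.19 in WR against TW, 1.14 in SeW against DSW1200, 1.15 in SeW against WR and −0.062 in DSW1200 against WR, where all tested genes had medians of 0.38, 0.84, 0.52 and −0.32. Relative to all genes they were −0.19, 0.30, 0.63 and 0.26, against −0.067, 0.52, 0.71 and 0.080 as reported. With median centring they were −0.31 in WR against TW, 0.80 in SeW against WR and 0.31 in DSW1200 against WR. The mean of probe sets gave 0.49 in SeW against TW, an offset of 32 gave 0.55 in SeW against WR, and the covariate gave 0.16, 0.31 and 0.26 in SeW against DSW1200, SeW against WR and DSW1200 against WR. Over the whole array, calls in SeW against TW were 12 without a filter, 1 without the trend and 0 with the covariate, against 177 as reported. They were 42 with median centring, 64 with probe sets averaged and 26 with only the 4 arrays compared. The cause of the changes under these settings was not tested.

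With each array left out in turn, counts ran from 0 to 3 in SeW against TW, 0 to 2 in SeW against WR, 0 to 1 in SeW against DSW1200 and 0 to 2 in the F test. Medians of the members ran from 0.19 to 0.57 in SeW against TW, 0.51 to 0.78 in SeW against WR, 0.35 to 0.61 in SeW against DSW1200, −0.050 to 0.12 in DSW1200 against TW, −0.18 to −0.078 in WR against TW and 0.064 to 0.19 in DSW1200 against WR. A group left with 1 array is assumed there to vary like the others.

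Groups share replicate numbers, but the replicate differences of any pair of groups correlated between −0.065 and 0.040 across genes, so the numbers were not taken to pair samples. With the replicate block, 2 members were called in SeW against TW, Si and Enpep, 0 in SeW against WR and 0 in each other comparison, with 114 genes called over the array in SeW against TW.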
